A study of Homo sapiens with 6 samples.

Results

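Assembly factors are proteins that build the complexes of the mitochondrial respiratory chain without staying in them. The 49 nuclear genes described here are the listed assembly factors of complexes I to V, 14 for complex I, 4 for complex II, 6 for complex III, 22 for complex IV and 3 for complex V. They were chosen by name, without the structural subunits, from the 67016 genes of a raw count table, and each symbol matched 1 row. The table came from SH-SY5Y, a human neuroblastoma cell line that the labels call a neuronal progenitor. Its cells were infected with 0.5 µl of an adenovirus and collected after 24 h. The virus Ad CMV 3xFlag-*Esrrg* drives the mouse *Esrrg* coding sequence, which encodes estrogen-related receptor gamma (ERRγ), with a 3xFlag tag from the CMV promoter, and the control virus Ad CMV GFP drives GFP from the same promoter. There were 3 libraries with Ad CMV 3xFlag-*Esrrg*, numbered 2, 3 and 4, and 3 with Ad CMV GFP, numbered 1, 3 and 4. Both groups carried a virus, no uninfected cells were analysed here, and the CMV promoter drives expression apart from the cells' own regulation of the gene. The labels do not say whether the libraries of a group came from separate cultures, so the p-values measure only the spread between these libraries, which may be technical.

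Complex I takes electrons from NADH, complex II from succinate, and both pass them through ubiquinone to complex III, cytochrome c and complex IV, while complex V makes ATP. Each of these complexes needs dedicated chaperones that add iron-sulfur clusters, flavin, heme or copper, hold freshly made subunits and join modules, and inherited loss of such factors is a cause of mitochondrial disease. ERRγ is an orphan nuclear receptor that binds single copies of an extended AGGTCA element and is known as an activator of genes of oxidative metabolism in heart, muscle and neurons.

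The Ad CMV GFP libraries held from 24969759 to 29700980 counted reads and the Ad CMV 3xFlag-*Esrrg* libraries from 26513620 to 40859666. Human *ESRRG* (ENSG00000196482, chromosome 1 from 216503246 to 217137755 of GRCh38), the check of the labels, had 2357, 2796 and 2876 counts in control libraries 1, 3 and 4, and 15228, 25994 and 26497 in Ad CMV 3xFlag-*Esrrg* libraries 2, 3 and 4. Its counts after infection may hold reads of the mouse transcript that aligned to the human gene. Ad CMV 3xFlag-*Esrrg* replicate 2 stood apart from replicates 3 and 4, with 46.6% of its reads assigned to no gene against 31.6% and 29.5%. The Ad CMV GFP libraries had from 51.3% to 52.2%. Here and below these are reads that the counter matched to no gene, without ambiguous or multiply aligned reads, which also enter no gene count. Percents are of the reads of all these kinds and those counted on genes. Reads counted on genes were 38.4%, 45.9% and 47.7% in Ad CMV 3xFlag-*Esrrg* libraries 2, 3 and 4. In the Ad CMV GFP libraries they were from 36.0% to 36.5%. The share of reads assigned to no gene moved with the groups and with the level of *ESRRG*. Its part in the results below was not tested beyond a fit that used it as a covariate. Of 12 adrenergic neuroblastoma markers 10 were tested, and *TH* and *CHGA* were listed at 0 in all 6 libraries. With Ad CMV 3xFlag-*Esrrg* 4 were lower and 1 was higher. By the same rule, given below, 16.8% of all genes tested were lower and 17.3% higher. The summed level of these markers ranged from 866 to 925 normalised counts per 1000000 (CPM) with Ad CMV GFP and from 616 to 815 with Ad CMV 3xFlag-*Esrrg*. Of 9 mesenchymal markers, all tested, 1 was lower and none higher, and their summed level ranged from 5560 to 5810 and from 5830 to 6720 CPM. The 5 Schwann or glial markers, all tested, held at most 8.23 CPM in all, with 1 lower and none higher. The 5 blood markers held at most 0.748 CPM, with 1 tested and not called and with *CD3E* and *HBB* among those listed at 0. Of the 5 epithelial markers 3 were tested and 1, *KRT18*, was higher, with summed levels from 34.0 to 41.0 and from 59.1 to 92.8 CPM. A listed 0 need not mean that a gene was not expressed, since the complex subunit genes *NDUFA6* and *ATP5IF1*, in use in most cells, were also listed at 0 in all 6 libraries. The part of these marker changes in the results below was not tested.

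The promoters of the factors held the core of the ERR element about as often as other promoters. RefSeq gave promoter windows, 250 bases before to 50 after the start on GRCh38.p14, for 43 of the 49 genes. The 7 letters AAGGTCA, searched on both strands, were in windows of 2 of these 43 genes (4.65%), *COX18* and *ECSIT*, and in windows of 4.80% of the 27305 genes of the table. The longer motif TCAAGGTCA, which contains the first, was in none of the 43 and in 0.432% of all genes. The core of the site of NRF1, a factor known to act on many nuclear genes for mitochondria, with letters GCATGCG, was in windows of 6 of the 43 genes (14.0%: *COX17*, *COX18*, *NDUFAF4*, *NDUFAF5*, *SDHAF2* and *UQCC2*) and of 4.74% of all genes. A match to letters is not a bound site, and no match says only that the letters are not in the window. The 250 bases before a start are shown for *COX18* (chr4:73069717-73069966, minus strand) and *ECSIT* (chr19:11528866-11529115, minus strand) because they are the members with the ERR core, given in capitals. In *COX18* the core began 73 bases before the transcription start used for the window shown. It began 30 bases before the transcription start used for another window of the gene. In *ECSIT* it began 81 bases before the start on the opposite strand, where it reads TGACCTT.
COX18: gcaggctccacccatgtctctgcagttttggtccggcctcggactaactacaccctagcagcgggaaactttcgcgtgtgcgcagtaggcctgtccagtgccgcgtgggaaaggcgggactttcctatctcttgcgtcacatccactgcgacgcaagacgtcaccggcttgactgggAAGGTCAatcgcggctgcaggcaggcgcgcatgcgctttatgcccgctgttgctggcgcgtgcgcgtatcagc
ECSIT: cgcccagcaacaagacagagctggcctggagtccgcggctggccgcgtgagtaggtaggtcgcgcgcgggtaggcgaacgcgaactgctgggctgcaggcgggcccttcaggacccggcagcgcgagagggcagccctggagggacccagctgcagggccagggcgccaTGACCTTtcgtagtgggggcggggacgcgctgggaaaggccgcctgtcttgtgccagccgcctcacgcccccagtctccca

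Of the 49 factors, 25 were higher and 1 was lower with Ad CMV 3xFlag-*Esrrg* than with Ad CMV GFP, 21 were not called and 2, *SCO2* and *SURF1*, had too few reads to be tested. A call needed an adjusted p below 0.05 (edgeR's quasi-likelihood test, Benjamini-Hochberg over all 24500 genes tested) and a fold change of at least 1.5. Among all genes tested 17.3% were called higher and 16.8% lower. Among protein-coding genes, which all the factors are, the shares were 25.9% and 12.4%. Thus 53.2% of the tested factors stood against 17.3% of all genes and 25.9% of protein-coding genes. The median log2 fold change of the 47 tested factors was 0.62, that of all genes tested -0.10 and that of protein-coding genes 0.12. The fold change was above 1 for 45 of the 47 factors, the exceptions being *COX20* and *NDUFAF6*. It was above 1 for 44.2% of all genes tested and for 7814 of 13746 protein-coding genes tested. With scaling by library size alone it was above 1 for 33 of the 47 factors. An adjusted p below 0.05 was reached by 34 factors in the higher direction (24.3% of all genes), 9 of them under 1.5-fold, and 13 of the called factors were at least 2-fold higher. Normalised CPM of 39 tested factors (83.0%), 38 higher and 1 lower, did not overlap between groups. This was so for 58.1% of all genes tested (27.8% higher) and for 70.3% of protein-coding genes. The smallest two-sided p of an exact permutation test is 0.1 for 3 libraries a group, and every call therefore comes from the fit over all genes. In bulk RNA, a change in the number of cells of a type and a change in RNA per cell cannot be told apart.

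**Figure D1:**
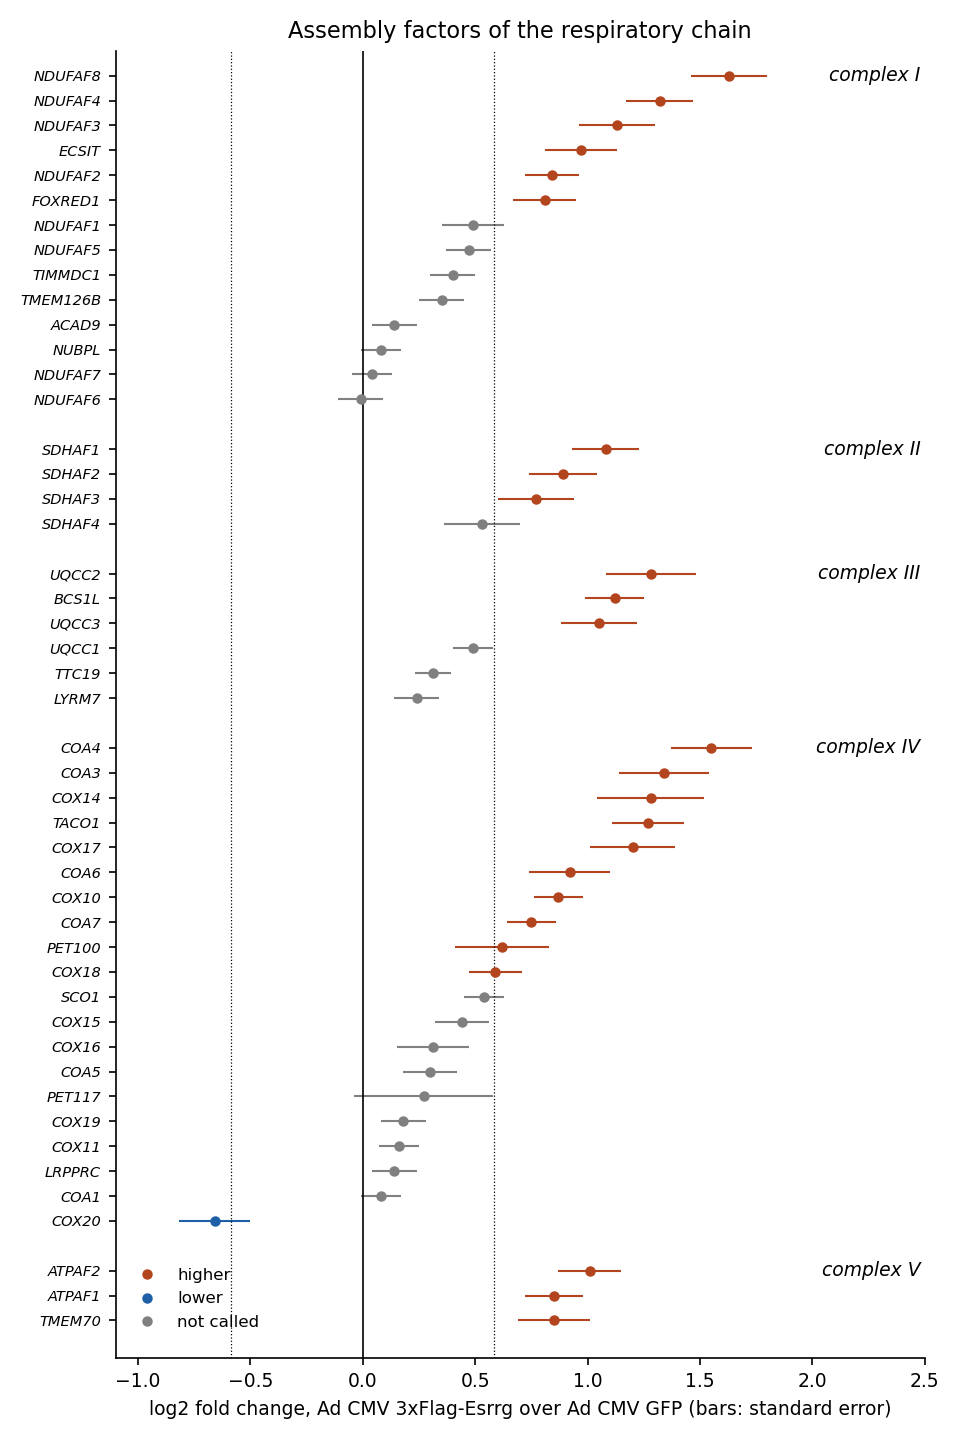
Fitted log2 fold changes of the 47 tested assembly factors, grouped by complex, with bars of 1 standard error and dotted lines at 1.5-fold in each direction. The 25 factors called higher run from 0.59 for COX18 to 1.63 for NDUFAF8, and COX20 at -0.66 is the factor called lower.

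The Ad CMV 3xFlag-*Esrrg* libraries were not alike. The median log2 ratio of the tested factors to the Ad CMV GFP mean was 0.42 in replicate 2, 0.70 in replicate 3 and 0.74 in replicate 4. Replicate 2 was the lowest of its group for all 25 factors called higher and for 37 of the 47 tested. It was also the lowest for 9994 of 24500 genes tested, 7863 of 13746 protein-coding genes and 72 of 75 tested structural subunits. Without replicate 2 the number of factors called higher was 31, beside 22.9% of all genes, and their median log2 fold change over all tested factors 0.81. Scaling by library size alone gave 14 factors higher with a median of 0.29, beside 8.98% of all genes, and it moved the median of all genes tested to -0.42. With the share of reads assigned to no gene as a covariate 8 factors were higher with a median of 0.29, beside 7.24% of all genes. Those called higher in every fit that used the 1.5-fold cutoff were *NDUFAF8*, *NDUFAF4*, *SDHAF1*, *BCS1L*, *UQCC3*, *COA4*, *TACO1* and *ATPAF2*.

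Of the 14 complex I factors, 6 were higher, 8 were not called and none was lower, with a median log2 fold change of 0.48. The share called higher was 42.9%, beside 17.3% of all genes tested and 25.9% of protein-coding genes. Complex I is put together from modules, and the factors divide by the module they serve. For the Q module, which passes electrons to ubiquinone, 3 of 6 factors were higher. *NDUFAF8* (ENSG00000224877, chromosome 17 from 81239305 to 81241310), a partner that stabilises NDUFAF5, changed most of all 47 factors. Counts were 714, 964 and 970 in control libraries 1, 3 and 4, and 1730, 3244 and 3560 in Ad CMV 3xFlag-*Esrrg* libraries 2, 3 and 4, the order kept below. Its levels in the controls and with Ad CMV 3xFlag-*Esrrg* were 28.6 ± 2.98 and 88.5 ± 21 normalised CPM (SD, n = 3 each), a log2 fold change of 1.63 ± 0.17 (standard error, SE, edgeR adjusted p = 6.0e-05). All 3 Ad CMV 3xFlag-*Esrrg* libraries lay above all 3 controls, with replicate 2 lowest. *NDUFAF4* (chromosome 6 from 96889315 to 96897891), which acts in a pair with NDUFAF3, had 323, 343 and 373 counts with Ad CMV GFP and 571, 1089 and 1043 with Ad CMV 3xFlag-*Esrrg*. Its levels were 11.3 ± 0.184 and 28.1 ± 5.91 CPM (SD, n = 3 each), a log2 fold change of 1.32 ± 0.15 (SE), with no overlap. *NDUFAF3* itself was higher by 1.13 on the log2 scale (standard error 0.17).

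The other Q module factors showed smaller differences. *NDUFAF5*, which hydroxylates an arginine of NDUFS7, had a log2 fold change of 0.47 ± 0.10 (SE, edgeR adjusted p = 0.0024), under the 1.5-fold cutoff. *NDUFAF7*, a mitochondrial methyltransferase, had 737, 803 and 831 counts with Ad CMV GFP and 738, 888 and 860 with Ad CMV 3xFlag-*Esrrg*. *NDUFAF6*, an early factor of the same module, had 554, 665 and 713 counts with Ad CMV GFP and 553, 678 and 736 with Ad CMV 3xFlag-*Esrrg*. In CPM the groups overlapped for both, and their log2 fold changes were 0.04 ± 0.09 (SE) and -0.01 ± 0.10 (SE).

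The mitochondrial complex I intermediate assembly (MCIA) complex builds the membrane arm. Of its 6 factors, with *COA1* counted here as well as under complex IV, 1 was higher. That share, 16.7%, was near the 17.3% of all genes tested and under the 25.9% of protein-coding genes. The factor called higher was *ECSIT*, whose promoter is shown above, with a log2 fold change of 0.97 ± 0.16 (SE, edgeR adjusted p = 7.7e-04). It was under 1.5-fold after a correction for GC content and length (log2 fold change 0.58). *NDUFAF1*, *TIMMDC1* and *TMEM126B*, subunits or partners of the same complex, had log2 fold changes of 0.49, 0.40 and 0.35 with adjusted p below 0.05, and *ACAD9*, an acyl-CoA dehydrogenase that also serves in it, had 0.14. *TIMMDC1* had 2963, 3442 and 3679 counts with Ad CMV GFP and 3374, 5084 and 5283 with Ad CMV 3xFlag-*Esrrg*, and the groups did not overlap in CPM. Per kilobase of exon *TIMMDC1* ranked first of the tested factors in the control, with 40.2 ± 1.30 CPM per kilobase (SD, n = 3). *NDUFAF8* followed with 21.4 ± 2.23. The length used sums all annotated exons of a gene and can exceed that of the expressed mRNA, so this rank depends on the annotation. Without division by length, *LRPPRC* (284 ± 10.2 CPM) and *COA1* (169 ± 3.23) were above *TIMMDC1* (109 ± 3.53) in the control. Exons of *CD80* on the opposite strand cover 29.4% of the exon bases of *TIMMDC1*. *CD80* had from 18 to 35 counts with Ad CMV GFP and from 14 to 17 with Ad CMV 3xFlag-*Esrrg*. Of the late factors, *NDUFAF2* and the flavoprotein *FOXRED1* were higher by 0.84 and 0.81, and *NUBPL*, which supplies iron-sulfur clusters, had a log2 fold change of 0.08.

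For complex II, 3 of 4 factors were higher, beside 17.3% of all genes tested and 25.9% of protein-coding genes. The 4 factors had a median log2 fold change of 0.83. *SDHAF1*, which helps to place iron-sulfur clusters in SDHB, had 159, 172 and 156 counts with Ad CMV GFP and 253, 392 and 428 with Ad CMV 3xFlag-*Esrrg*. Its levels were 5.30 ± 0.514 and 11.2 ± 1.59 CPM (SD, n = 3 each), a log2 fold change of 1.08 ± 0.15 (SE, edgeR adjusted p = 2.5e-04), with no overlap. *SDHAF3*, a second factor for these clusters, was higher by 0.77. *SDHAF2*, needed for attaching flavin to SDHA, had 193, 237 and 264 counts with Ad CMV GFP and 303, 457 and 573 with Ad CMV 3xFlag-*Esrrg*, a log2 fold change of 0.89 ± 0.15 (SE). An overlapping gene on the same strand, ENSG00000256591, covers 44.8% of its exon bases, reads in the shared part cannot be told apart between the genes, and that gene had a log2 fold change of 0.15. *SDHAF4*, which binds SDHA after flavin is attached, had 240, 306 and 347 counts with Ad CMV GFP and 276, 514 and 549 with Ad CMV 3xFlag-*Esrrg*. Its groups overlapped in CPM, and its log2 fold change of 0.53 ± 0.17 (SE, edgeR adjusted p = 0.024) was under the cutoff. Without Ad CMV 3xFlag-*Esrrg* replicate 2 *SDHAF4* was called, at a log2 fold change of 0.81.

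For complex III, 3 of 6 factors were higher, beside 17.3% of all genes tested and 25.9% of protein-coding genes. The 6 factors had a median of 0.77. None of the 6 overlapped between groups, where 58.1% of all genes tested and 70.3% of protein-coding genes did not overlap. *UQCC2*, which with *UQCC1* guides the synthesis of cytochrome b, had 601, 828 and 823 counts with Ad CMV GFP and 1019, 2310 and 2395 with Ad CMV 3xFlag-*Esrrg*. Its levels were 24.3 ± 2.77 and 59.0 ± 18.1 CPM (SD, n = 3 each), a log2 fold change of 1.28 ± 0.20 (SE, edgeR adjusted p = 5.9e-04). Replicate 2 with 38.1 CPM lay between the controls and the other Ad CMV 3xFlag-*Esrrg* libraries, at 68.6 and 70.3 CPM. *ITPR3* on the opposite strand covers most of the 24.1% of its exon bases that other genes share, and had a log2 fold change of -0.34. *UQCC3*, the third cytochrome b factor, was low, with 64, 68 and 88 counts with Ad CMV GFP and 118, 178 and 174 with Ad CMV 3xFlag-*Esrrg*, a log2 fold change of 1.05 ± 0.17 (SE). Exons of *LBHD1* on the opposite strand cover 40.8% of its exon bases and *LBHD1* had a log2 fold change of 0.11. *UQCC1* itself was at 0.49, under the cutoff. Among the factors for the Rieske iron-sulfur protein, *BCS1L*, the ATPase that moves it across the inner membrane, was higher by 1.12 ± 0.13 (SE). *TTC19*, which helps to clear fragments of it, was at 0.31. *LYRM7*, its chaperone in the matrix, had 697, 843 and 790 counts with Ad CMV GFP and 827, 998 and 997 with Ad CMV 3xFlag-*Esrrg*. Its libraries did not overlap in CPM, and its log2 fold change of 0.24 ± 0.10 (SE) had an adjusted p of 0.055 (edgeR).

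**Figure D2:**
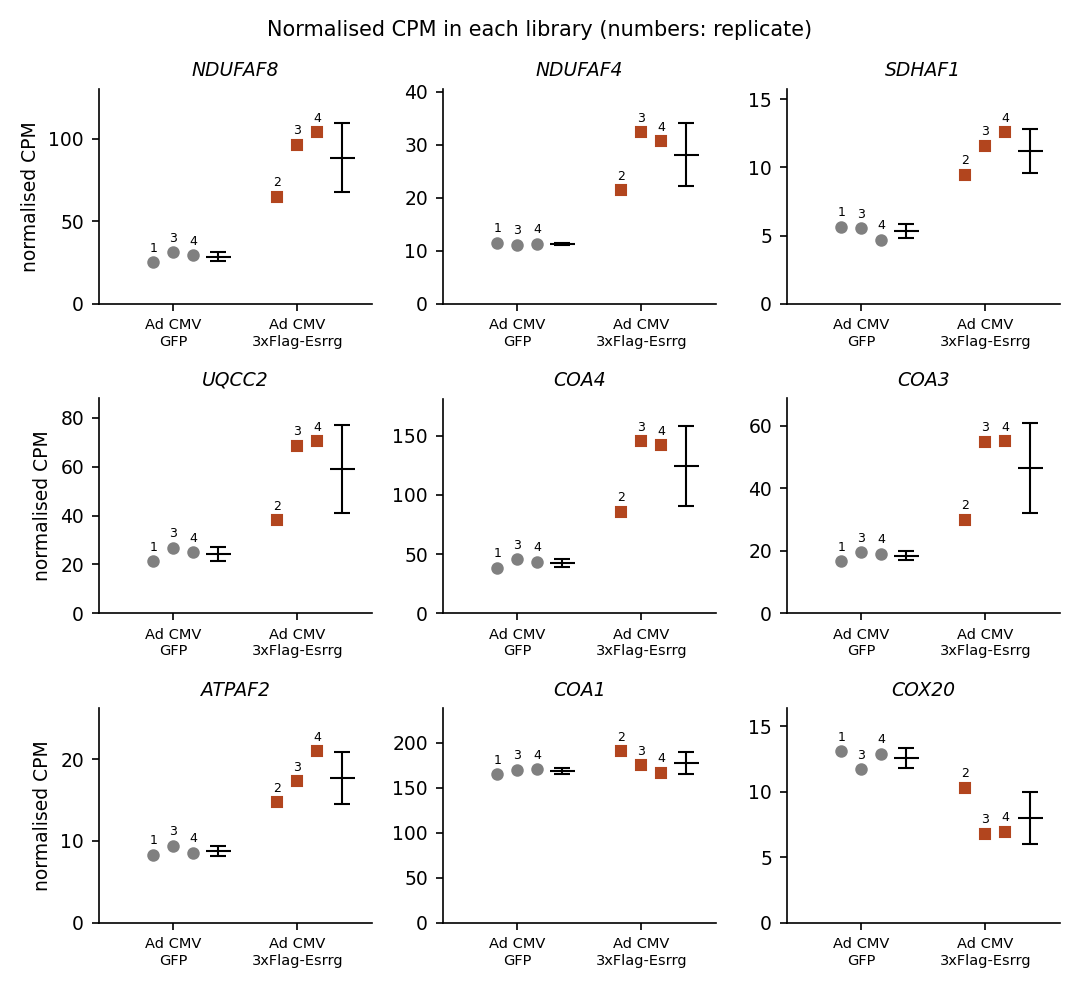
Normalised CPM of 9 assembly factors in each library, on axes that start at 0. Numbers name the replicate, and the bar beside each group is the mean ± SD of 3 libraries. The 7 factors from NDUFAF8 to ATPAF2 have all Ad CMV 3xFlag-Esrrg libraries above the controls with replicate 2 lowest, the groups overlap for COA1, and COX20 is lower.

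Of the 22 complex IV factors 20 were tested, and 10 were higher, 9 were not called and 1 was lower, with a median log2 fold change of 0.56. Of all genes tested 17.3% were higher and 16.8% lower, and of protein-coding genes 25.9% and 12.4%. The highest of the complex IV factors was *COA4* (chromosome 11 from 73872667 to 73876901), a small protein of the intermembrane space with paired cysteine motifs. It had 1079, 1407 and 1437 counts with Ad CMV GFP and 2288, 4896 and 4834 with Ad CMV 3xFlag-*Esrrg*. Its levels were 42.4 ± 3.72 and 124 ± 33.6 CPM (SD, n = 3 each), a log2 fold change of 1.55 ± 0.18 (SE, edgeR adjusted p = 1.1e-04), with no overlap. *COA6*, of related structure, was higher by 0.92, *COA7*, a protein of helical repeats in the same space, by 0.75, and *COA5* was at 0.30 with overlapping groups.

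Of 5 factors for the synthesis and early handling of COX1, the catalytic subunit made in mitochondria, 3 were higher, beside 17.3% of all genes. *COA3*, which holds new COX1 with COX14, had 472, 606 and 629 counts with Ad CMV GFP and 803, 1848 and 1875 with Ad CMV 3xFlag-*Esrrg*, a log2 fold change of 1.34 ± 0.20 (SE). The libraries did not overlap, and exons of *WNK4* on the opposite strand, which had a log2 fold change of -0.29, cover 42.3% of its exon bases. *COX14* was at 1.28 ± 0.24 (SE). *TACO1*, a translational activator of COX1, had 649, 840 and 918 counts with Ad CMV GFP and 1236, 2284 and 2519 with Ad CMV 3xFlag-*Esrrg*, a log2 fold change of 1.27 ± 0.16 (SE). An overlapping gene model on the same strand, ENSG00000288894, shares 40.9% of its exon bases. *LRPPRC*, which stabilises mitochondrial mRNAs, was abundant with from 8217 to 11072 counts and had a log2 fold change of 0.14 ± 0.10 (SE, edgeR adjusted p = 0.27). *COA1* had 4649, 5255 and 5659 counts with Ad CMV GFP and 5100, 5885 and 5706 with Ad CMV 3xFlag-*Esrrg*. Its groups overlapped, with 169 ± 3.23 and 178 ± 11.9 CPM (SD, n = 3 each) and a log2 fold change of 0.08 ± 0.09 (SE).

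Copper reaches complex IV through a relay in which *COX17* hands it to SCO1 and SCO2 for COX2 and to COX11 for COX1. Of these and their partners, *COX17* and *COA6* were higher. *COX17* had 323, 384 and 367 counts with Ad CMV GFP and 481, 1015 and 1093 with Ad CMV 3xFlag-*Esrrg*, a log2 fold change of 1.20 ± 0.19 (SE, edgeR adjusted p = 5.6e-04), with no overlap. Exons of *POPDC2* on the same strand cover just over 20% of its exon bases, and *POPDC2* was higher as well, at 1.07 ± 0.11 (SE). *SCO1* was at 0.54 ± 0.09 (SE, edgeR adjusted p = 0.001), under the cutoff, and *COX19* and *COX11* were at 0.18 and 0.16 with adjusted p of 0.19 and 0.15. *SCO2* was listed at 0 counts in all 3 Ad CMV GFP libraries and had 2, 2 and 3 counts with Ad CMV 3xFlag-*Esrrg*. None of these passes the 3 counts per library taken as the limit of detection, so no fold is given. Other genes cover 88.2% of its exon bases, by shared bases *NCAPH2* and then the lncRNA ENSG00000272821, both on the opposite strand, and *TYMP* on the same strand. *NCAPH2* had a log2 fold change of 0.72 and *TYMP* of -0.01.

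Heme A is made by *COX10* and *COX15*. *COX10*, which makes heme O, was higher by 0.87 ± 0.11 (SE). *COX15*, which turns it into heme A, had 1545, 1738 and 1742 counts with Ad CMV GFP and 1606, 2731 and 2722 with Ad CMV 3xFlag-*Esrrg*. Its log2 fold change was 0.44 ± 0.12 (SE, edgeR adjusted p = 0.013) and replicate 2 lay just above the controls in CPM. Exons of other genes, mainly ENSG00000285932 on the same strand, cover 27.9% of its exon bases. *SURF1*, a factor for placing heme A whose loss is a known cause of Leigh syndrome, was listed at 0 in all 6 libraries. It lies on chromosome 9 (from 133351758 to 133356676 of GRCh38) within a run of 14 neighbouring protein-coding genes, from 133205277 to 133528612, that had at most 5 counts in any library. Of these, 11 were at 0 throughout, and the run includes *RPL7A*, a ribosomal protein gene of ubiquitous expression, with at most 5 counts. *GBGT1* just before the run had from 37 to 81 counts. Of all 31-base words of *SURF1*, 0% were found in the 261 alternate contigs of the GRCh38 copy used here and 5.21% in other genes. The zero for *SURF1* is shared with its neighbours on the chromosome, and how much *SURF1* these cells express cannot be told from these counts.

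*COX20*, the chaperone of newly made COX2, was the factor called lower. *COX20* (ENSG00000203667, chromosome 1 from 244835616 to 244845057) had 368, 363 and 428 counts with Ad CMV GFP and 276, 229 and 236 with Ad CMV 3xFlag-*Esrrg*. Its levels were 12.6 ± 0.728 and 8.02 ± 2.0 CPM (SD, n = 3 each), a log2 fold change of -0.66 ± 0.16 (SE, edgeR adjusted p = 0.0078). All Ad CMV 3xFlag-*Esrrg* libraries lay below the controls, and replicate 2 was the nearest to them. The difference was under 1.5-fold, with the same sign, with DESeq2 and after correction for GC content and length, and also without Ad CMV 3xFlag-*Esrrg* replicate 3 or 4 (log2 fold changes of -0.54 and -0.55). With the share of reads assigned to no gene as a covariate it was -0.10 (adjusted p = 0.73, edgeR). These fits called 13.1% (DESeq2), 15.0% (GC content and length), 11.4% and 11.9% (without replicate 3 and 4) and 5.4% (covariate) of all genes lower. Exons of *HNRNPU* on the opposite strand cover 76.6% of the exon bases of *COX20*. *HNRNPU* had from 25849 to 41840 counts, far above those of *COX20*, with a log2 fold change of 0.29 (adjusted p = 0.075, edgeR). The strand setting of the read counting is not given in the sources used here, and reads that fit more than 1 gene, which the counting sets aside as ambiguous, made up 5.69%, 9.84% and 9.79% of Ad CMV 3xFlag-*Esrrg* libraries 2, 3 and 4 and no more than 4.87% of any control library. Their part in the value for *COX20* was not tested. The processed pseudogene *COX20P1*, with 103, 115 and 138 counts against 127, 215 and 188, had a log2 fold change of 0.53 in the other direction, under the cutoff.

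The other factors that handle COX2 had log2 fold changes above 0. *COX18*, which inserts the tail of COX2 into the membrane, was the nearest of the called factors to the cutoff, at 0.59 ± 0.12 (SE), and lost its call in 4 of 6 fits, each without 1 library. *COX16*, which acts on the copper site of COX2, had 82, 94 and 108 counts with Ad CMV GFP and 98, 127 and 135 with Ad CMV 3xFlag-*Esrrg*, a log2 fold change of 0.31 ± 0.16 (SE, edgeR adjusted p = 0.13). Other genes on its strand, mainly the read-through gene *SYNJ2BP-COX16* with at most 1 count, cover 37.8% of its exon bases. Of the factors for later steps, *PET100* was higher by 0.62 ± 0.21 (SE, edgeR adjusted p = 0.031) at from 50 to 118 counts, and its call was also lost in 4 such fits. *PET117* was the least abundant tested factor, with 15, 15 and 18 counts with Ad CMV GFP and 12, 27 and 21 with Ad CMV 3xFlag-*Esrrg*. Its groups overlapped, its log2 fold change was 0.27 ± 0.31 (SE), and *KAT14* on the same strand covers 78.3% of its exon bases.

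All 3 complex V factors were higher, beside 17.3% of all genes tested and 25.9% of protein-coding genes. The 3 factors had a median of 0.85 and no overlap between groups (58.1% of all genes tested and 70.3% of protein-coding genes did not overlap). *ATPAF2*, which holds the alpha subunit of the F1 part, had 234, 292 and 283 counts with Ad CMV GFP and 393, 583 and 714 with Ad CMV 3xFlag-*Esrrg*. Its levels were 8.76 ± 0.60 and 17.7 ± 3.14 CPM (SD, n = 3 each), a log2 fold change of 1.01 ± 0.14 (SE, edgeR adjusted p = 2.9e-04). *ATPAF1*, the chaperone of the beta subunit, had 1221, 1313 and 1434 counts with Ad CMV GFP and 1647, 2747 and 3062 with Ad CMV 3xFlag-*Esrrg*, a log2 fold change of 0.85 ± 0.13 (SE). *TMEM70*, which serves the ring of c subunits in the membrane, had 296, 381 and 430 counts with Ad CMV GFP and 436, 817 and 813 with Ad CMV 3xFlag-*Esrrg*, a log2 fold change of 0.85 ± 0.16 (SE).

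The structural subunits of the same complexes, which are the parts that the factors assemble, had larger log2 fold changes as a list. Of 79 listed nuclear subunits 75 were tested (*NDUFA6* and *ATP5IF1* are among those left out for low counts), and 69 (92.0%) were higher and none was lower. Of all genes tested 17.3% were higher and 16.8% lower, and of protein-coding genes 25.9% and 12.4%. The median of the tested subunits was 1.28 beside 0.62 for the factors. By complex, the median was 1.15 for 34 subunits of complex I against 0.48 for the factors, 0.95 for 4 of complex II against 0.83, 1.51 for 9 of complex III against 0.77, 1.61 for 11 of complex IV against 0.56, and 1.27 for 17 of complex V against 0.85. The highest and lowest values were *NDUFB9* at 1.62 and *NDUFV2* at -0.35 for complex I, *SDHB* at 1.41 and *SDHD* at 0.46 for complex II, and *CYC1* at 2.12 and *UQCRB* at 0.93 for complex III. For complex IV they were *COX5B* at 1.83 and *COX6C* at 0.93, and for complex V *ATP5MC1* at 2.19 and *ATP5PB* at 0.84. The tested subunits were shorter than the factors, with a median of 2615 bases of exon against 3991. Up to 2000 bases the median log2 fold change was 1.43 for subunits against 1.08 for factors. From 2000 to 5000 bases it was 1.33 against 0.80, and above 5000 bases 0.98 against 0.45. The difference between factors and subunits was not tested. A further list held 33 genes with a part in assembly outside the 49, such as *AIFM1*, *OXA1L* and *CHCHD4*. Of this list 31 were tested, 20 (64.5%) were higher and none was lower, with a median of 0.89, beside the same shares of all genes. Its highest was *FDXR*, the ferredoxin reductase, at 1.79 ± 0.16 (SE), and its lowest *ATPSCKMT* at -0.31, while *PYURF* and *FDX2* had at most 3 counts in every library.

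**Figure D3:**
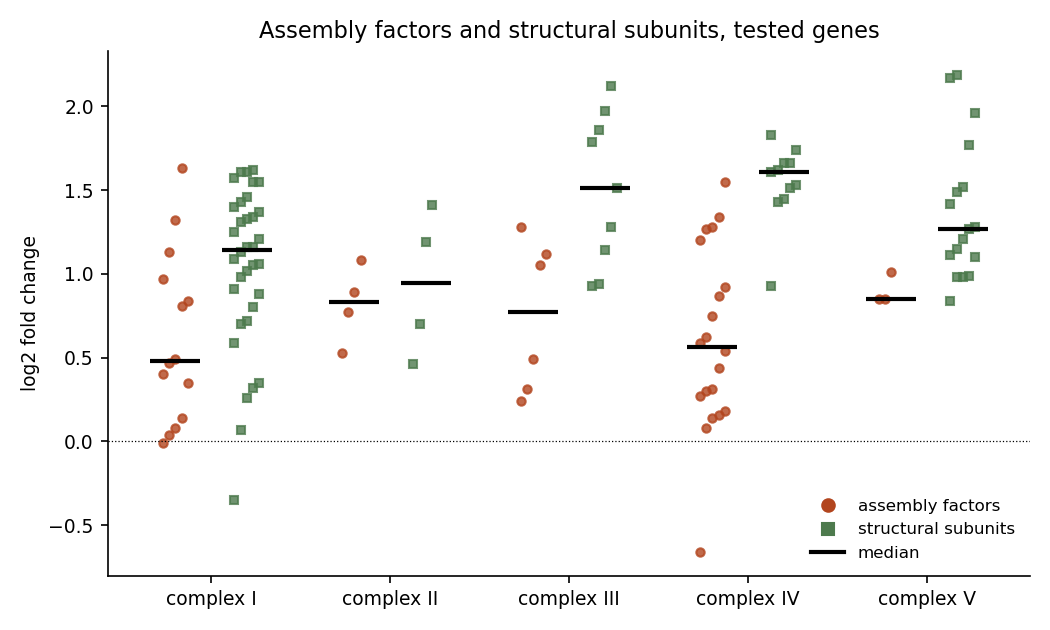
Log2 fold changes of the tested assembly factors (circles) and structural subunits (squares) of each complex, with black bars at the medians. The subunit median is above the factor median in each complex, by most in complex IV at 1.61 against 0.56.

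The fold changes of the factors differed with gene length, as did those of other protein-coding genes. Of 11 tested factors with up to 2000 bases of exon, 8 were higher with a median of 1.08, where 49.1% of the protein-coding genes of that length were higher with a median of 0.62. Of 16 factors from 2000 to 5000 bases 10 were higher with a median of 0.80, beside 32.8% and 0.26. Of 20 longer factors 7 were higher with a median of 0.45, beside 17.6% and -0.01. The factors lay above the protein-coding genes in each class, and the long genes *LRPPRC*, *COA1*, *NDUFAF6* and *ACAD9* were all near 0. Across the 47 factors, which are not independent replicates and share the same libraries, the log2 fold change had a Spearman rho of -0.53 with exon length and 0.49 with GC content (Pearson r -0.50 and 0.54), and across 13746 protein-coding genes rho was -0.26 and 0.40. With a correction of every library for GC content and length, 26 factors were higher, of which 22 were among the 25, beside 13.4% of all genes. The calls of *ECSIT*, *FOXRED1* and *PET100* were lost in that fit and *LRPPRC*, *NDUFAF5*, *SCO1* and *SDHAF4* were added, with *LRPPRC* at 0.59.

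**Figure D4:**
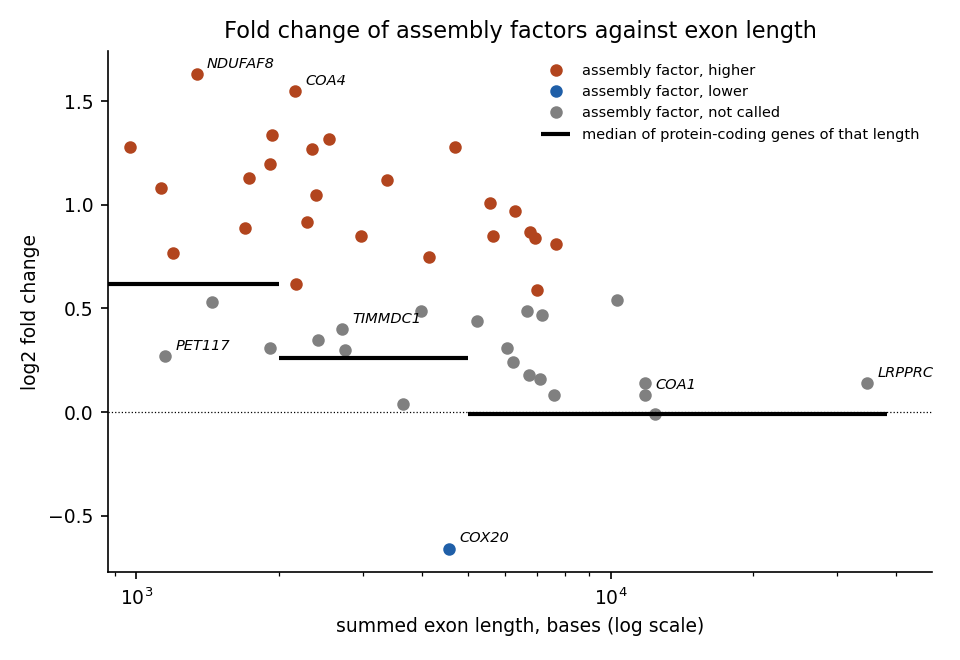
Log2 fold change of each tested assembly factor against the summed length of its exons on a log axis, with black lines at the median of all protein-coding genes tested in the same length class. The shortest class has a factor median of 1.08 and the longest 0.45, beside 0.62 and -0.01 for protein-coding genes.

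The number of factors called higher differed between the other fits, as did the percent of all genes called higher. DESeq2 and RLE size factors each gave 27 factors, beside 19.3% and 19.6% of all genes, and neither gave a factor called lower (13.1% and 14.1% of all genes). TMM factors from protein-coding genes gave 23 (13.8%), a test of protein-coding genes only 23 (20.5%), no filter on low counts 25 (10.9%) and at least 10 counts in every library 24 (18.1%). A 2-fold cutoff gave 13 (7.97%) and a test against a 1.5-fold threshold 15 (9.01%), with none lower (8.09% and 5.66% of all genes). The replicate number as a block gave 27 (19.4%), and the block with the correction for GC content and length 29 (14.7%). Leaving out Ad CMV GFP library 1, 3 or 4 gave 23, 24 and 25 (15.3%, 16.5% and 16.4%), and leaving out Ad CMV 3xFlag-*Esrrg* library 3 or 4 gave 23 each (15.2% and 14.6%). Of the 25 factors, 23 were called in all 6 fits without 1 library, all but *COX18* and *PET100*.

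**Figure D5:**
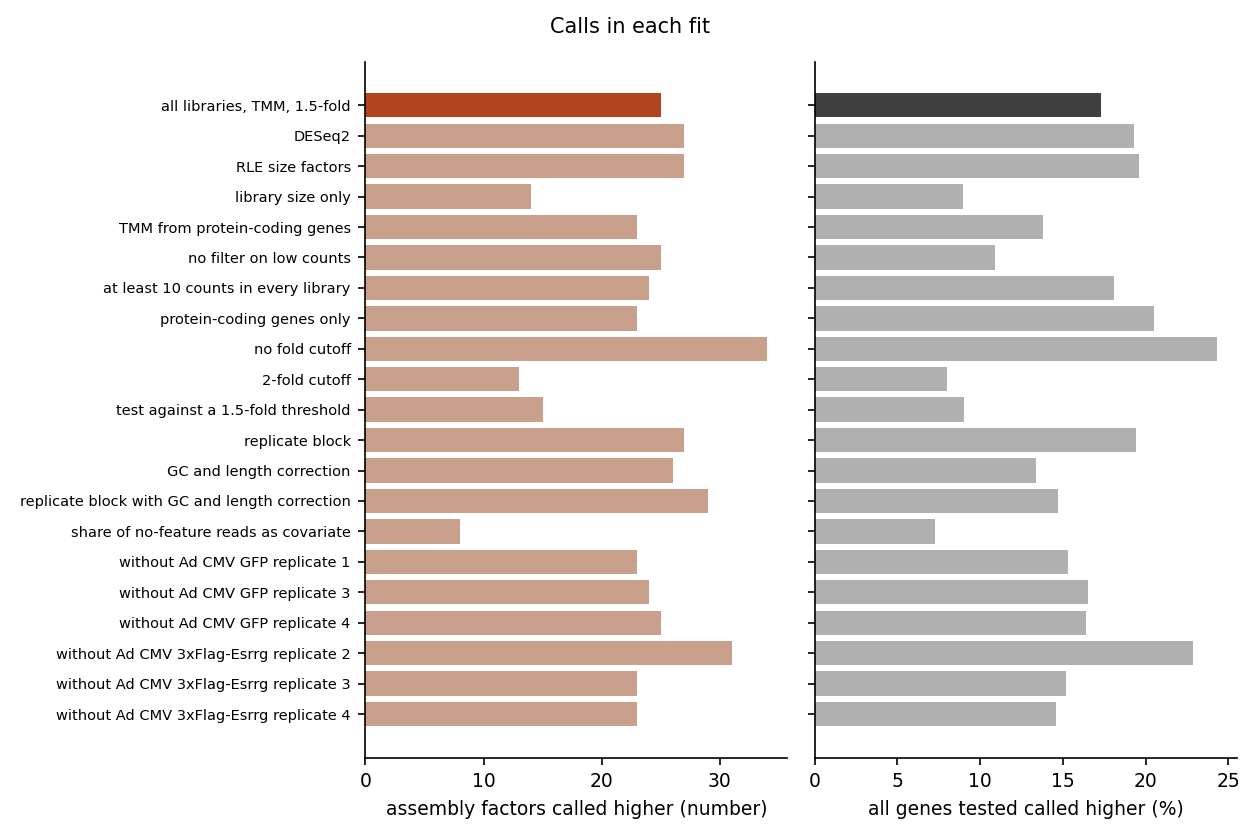
Number of assembly factors called higher (left) and percent of all genes tested that were called higher (right) in each fit, the dark bars being the fit reported. The number runs from 8 with the share of reads assigned to no gene as a covariate to 34 with no fold cutoff, and the percent of all genes from 7.24 to 24.3 in the same fits.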

How the data were processed

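The data are 6 RNA-seq libraries of SH-SY5Y cells, 3 with Ad CMV GFP and 3 with Ad CMV 3xFlag-*Esrrg*, grouped by their sample labels. The authors deposited raw counts of reads per gene, together with 5 summary entries of the counter that name no gene. The submitters' processing notes name CASAVA, Trim Galore 0.6.7, STAR 2.7.9a, HTSeq 0.11.3, DESeq2 and GRCh38. The library kit kept strand, but the strand setting of the counting and the annotation release are not given in the sources used here. Of the 67060 gene rows, 44 copies in the pseudoautosomal part of chromosome Y were left out, and 60419 of the remaining 67016 (90.2%) matched GENCODE release 44, which gave symbols, positions, exon lengths and GC content and is not known to be the authors' annotation. Unmatched genes held 0.153% of the counts. The reads assigned to no gene were from 51.3% to 52.2% with Ad CMV GFP and from 29.5% to 46.6% with Ad CMV 3xFlag-*Esrrg*. They do not include ambiguous or multiply aligned reads, and all these kinds stayed out of library sizes.

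Counts were filtered with filterByExpr (24500 genes kept), scaled by TMM and compared with the quasi-likelihood test of edgeR 4.0.16 in R 4.3.3. A gene was called at 1.5-fold or more with a p below 0.05 after Benjamini-Hochberg adjustment for all genes tested. The SE was taken as the size of the log2 fold change divided by the root of F. Log values used a prior count of 2. Normalised CPM divide counts by the library size times the TMM factor, per 1000000, and exon overlap counts bases shared with any other annotated gene. A count of 3 per library was taken as the limit of detection, which covers counting error only.

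The members and all gene lists were chosen with earlier results of these data known, so that no pattern here is independent support for those results. Counts in every library were given for the highest and lowest factors by log2 fold change (2 each in complexes I and IV, 1 each in II, III and V), for factors called lower or too low to test, for factors with over 20% of their exon bases covered by other genes, and for *ESRRG*. Values of *PET100*, *COX18*, *ATPAF1*, *LRPPRC* and the overlapping genes were added after they had been seen. Other lists, of markers, structural subunits and further assembly genes, were given by their counts and their highest and lowest genes.

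Alternatives were DESeq2 1.42.0, RLE size factors, scaling by library size alone, TMM factors from protein-coding genes, no filter, at least 10 counts in every library, protein-coding genes only, calls by p alone, calls at 2-fold, a test against a 1.5-fold threshold, the replicate number as a block, smooth curves of GC content and exon length (mgcv 1.9.3), both of these together, the share of reads assigned to no gene as a covariate, and each library left out in turn. On simulated counts with 200 changed genes among the 24500, edgeR recovered 55 of 100 genes changed by 1 on the log2 scale and 92 of 100 changed by 2, with 11 false calls. DESeq2 recovered 56 and 91, with 10 false calls. The simulation changed as many genes up as down. It held no library apart from its group and no difference in the share of reads assigned to no gene. In the data 17.3% of the genes tested were called higher and 16.8% lower, so these rates need not hold for the calls reported. Plots used matplotlib 3.10.9 and tables pandas 2.3.3, scipy 1.17.1 and numpy 2.4.6, in Python 3.11.15.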

Additional observations from a re-analysis of the deposited data

Results flagged for a closer look

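Reads that fit more than 1 gene are set aside by the counting as ambiguous and enter no gene count. With Ad CMV 3xFlag-*Esrrg* they took 5.69%, 9.84% and 9.79% of the reads (libraries 2, 3 and 4). The share was 4.55%, 4.81% and 4.87% with Ad CMV GFP (libraries 1, 3 and 4), so that all libraries of the first group lay above the controls. This signal lies in entries of the counter that no comparison of gene counts uses. Exons of other genes overlap most of the exon bases of *COX20*, *PET117* and *SCO2*, and the part of these reads in their values was not tested.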

How the results depend on the processing

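The median log2 fold change of the factors stayed above 0 in every fit run, and no factor was called higher in some fits and lower in others. Where a value changed, the cause was not tested, except where a stricter cutoff or fewer libraries are the alternative itself. Of the factors called higher, against 25, library size only gave 14 (median 0.287 against 0.616), the 2-fold cutoff 13, the test against a 1.5-fold threshold 15, and the share of reads assigned to no gene as covariate 8 (median 0.294). No factor was lower, against 1, with DESeq2, RLE size factors, the 2-fold cutoff, the 1.5-fold threshold, the GC and length correction and the covariate (0 in each). With 1 library left out, from 23 to 31 factors were higher, from 0 to 1 lower, and the median ran from 0.562 to 0.812. The 31 and the 0.812 came without Ad CMV 3xFlag-*Esrrg* replicate 2, and *COX20* lost its call without replicate 3 or 4. Of all genes called, 50.7% were higher, against 22.5% with library size only, 38.7% with TMM from protein-coding genes and 61.4% with the 1.5-fold threshold, and the median of all genes moved from -0.104 to -0.422 and -0.228 in the first 2 of these.

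The groups share only replicate numbers 3 and 4, and nothing ties same-numbered libraries to a common culture or day. Their deviations from the group means correlated at 0.075 and -0.0001, and crossed numbers at 0.0999 and 0.0184. With the replicate block 27 factors were higher and 1 was lower (median 0.674), and the replicate block together with the GC and length correction gave 29 higher and 1 lower.

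The factors whose sign turned were not called in the fit reported or in the fit that turned it. *NDUFAF6* (-0.01) was 0.072 with DESeq2 and with RLE size factors, 0.00013 with no filter, 0.14 with the GC and length correction, 0.089 with the block added, and from -0.047 to 0.11 with 1 library left out. Library size only gave -0.28 for *NDUFAF7*, -0.19 for *ACAD9*, -0.25 for *NUBPL*, -0.0066 for *TTC19*, -0.072 for *LYRM7*, -0.16 for *COX11*, -0.017 for *COX16*, -0.15 for *COX19*, -0.24 for *COA1*, -0.031 for *COA5*, -0.18 for *LRPPRC* and -0.067 for *PET117*. TMM from protein-coding genes gave -0.086 for *NDUFAF7*, -0.050 for *NUBPL* and -0.045 for *COA1*, and protein-coding genes only -0.097, -0.061 and -0.056, with -0.0026 for *ACAD9*. The GC and length correction gave -0.18 for *ACAD9* and -0.098 for *COX19*, and with the replicate block -0.23 and -0.077. The covariate gave -0.054 for *NDUFAF1*, -0.041 for *ACAD9*, -0.10 for *SDHAF4*, -0.089 for *COX19*, -0.13 for *COA5* and -0.34 for *PET117*. Depth limits *SCO2*, *PET117* (at most 27 counts) and *PET100* (at most 118).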

Other observations

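Of the 11 named pseudogene copies of the factors in the table, 7 were tested, none was higher and 1 was lower, where 17.3% and 16.8% of all genes tested were. The copy called lower was *NDUFAF2P2*, with 57, 51 and 57 counts with Ad CMV GFP and 26, 29 and 17 with Ad CMV 3xFlag-*Esrrg*, a log2 fold change of -1.22 ± 0.27 (SE, edgeR adjusted p = 0.0042). Its parent gene *NDUFAF2* was higher by 0.84. The 4 copies of *NDUFAF4* had log2 fold changes from -1.06 to -0.21, none called, and *NDUFAF4* was at 1.32. The copies held at most 215 counts in any library, and reads that copy and parent share cannot be assigned to either with certainty.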
